A study of Homo sapiens with 15 samples.

Results

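The thioredoxin system and the enzymes that supply it with NADPH were followed through 9 genes in BEAS-2B cells exposed to PM2.5: TXN, TXNRD1, PRDX1, SRXN1, NQO1, PGD, TALDO1, TKT and ME1. They were taken by symbol from the 58219 genes of the count table, and all 9 were among the 17599 genes that passed the filter on low counts. Thioredoxin is a small protein that reduces disulfides, and thioredoxin reductase restores it at the cost of NADPH. Peroxiredoxins pass electrons from thioredoxin to hydrogen peroxide and are themselves repaired by sulfiredoxin when over-oxidized, while NADPH comes from the pentose phosphate pathway and from malic enzyme. In airway epithelium, many of these genes are known targets of the transcription factor NRF2, which binds the antioxidant response element, and NQO1 is also known as a target of the aryl hydrocarbon receptor.

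The libraries were made from BEAS-2B, 1 immortalized bronchial epithelial line, grown in serum-free medium on collagen. Cells received vehicle (Control_24h), 1 µg/cm2 (PM_24h_1dose) or 30 µg/cm2 (PM_24h_30dose) of PM2.5 extracted from filters sampled in Beijing, and were collected after 24 h. In the repeated protocol, cells received vehicle (Control_7d) or 1 µg/cm2 (PM_7d_1dose) each day over 7 days with a wash between exposures, and the methods give 1 exposure fewer than the labels. Each of the 5 conditions had 3 libraries from independent experiments, 15 in all, and the experiment number is shared between the conditions of a protocol.

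Between 21460981 and 34724765 reads were counted per library, with a median of 29243177. All 10 airway epithelial markers stood above 3 counts in every library, as did 6 of 6 fibroblast and mesenchymal markers, while 1 of 4 leukocyte markers (CD14) and 0 of 3 endothelial markers did. The summed epithelial markers ranged from 3988 to 4425 CPM in Control_24h and from 1772 to 2890 CPM in PM_24h_30dose, and from 3544 to 4299 CPM in Control_7d and 2538 to 2745 CPM in PM_7d_1dose. The summed mesenchymal markers ranged from 348.5 to 568.2 CPM in PM_24h_30dose, against 494.7 to 787.9 CPM in Control_24h, and from 206.7 to 291.5 CPM in PM_7d_1dose, against 296.5 to 354.1 CPM in Control_7d. VIM made up most of the mesenchymal sum, at a mean of 532 CPM in Control_24h and 358 CPM in PM_24h_30dose. COL1A1 and PDGFRB were also lower at 30 µg/cm2, while COL1A2 went from 17.3 to 22.4 CPM and CDH2 from 6.36 to 7.49 CPM. The shifts in the sums went with the treatments described here, and their part in the results was not tested. The 3 libraries of experiment 2 at 24 h stood apart from those of experiments 1 and 3. Between 24-h libraries of 1 condition the chi-square per degree of freedom was 81.2 to 198 for pairs that held experiment 2 and 4.69 to 19.9 for pairs that did not. Results at 24 h are therefore also given without these libraries, which leaves experiments 1 and 3 alone at 24 h. Experiment 2 was set apart on these same data, so p-values of those fits are no separate support. At 7 d the treated library of experiment 3 also stood apart from the others of its condition. In PM_7d_1dose the chi-square was 28.3 and 22.1 for the pairs that held it and 5.09 for the other pair, against 4.59 to 5.475 in Control_7d.

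Levels of the 9 genes are given as normalized CPM (reads of a gene scaled to a common library size), and as CPM per kilobase of exon where genes are compared with each other. In Control_24h, TXN was the most abundant transcript per kilobase at 484, followed by PRDX1 at 272. TALDO1, PGD, TKT and NQO1 lay between 66.9 and 95.8, TXNRD1 at 49.6 and ME1 at 24.7. SRXN1 was by far the lowest at 0.435, from 7 to 73 counts per library. At 30 µg/cm2, NQO1 and TXNRD1 reached 258 and 257 CPM per kilobase and so stood beside PRDX1 at 271. The 9 genes together took 2989 ± 203 CPM (SD, n = 3) in Control_24h, 3742 ± 259 in PM_24h_1dose, 5700 ± 501 in PM_24h_30dose, 1911 ± 71.3 in Control_7d and 1695 ± 160 in PM_7d_1dose. TXNRD1 made up 9.70% to 12.5% of that sum in Control_24h and 15.3% to 38.9% in PM_24h_30dose.

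The level of SRXN1 needs a caution. Of its 2698 exon bases, 2292 are shared with the readthrough gene ENSG00000270299 on the same strand, which held 0 to 2 counts in any library, and 406 bases are free. Counting options are not given in the sources used here, and the SRXN1 counts may come from the free bases only. Set against those bases alone, SRXN1 reached 2.89 CPM per kilobase in Control_24h and 15.5 in PM_24h_30dose. PRDX1 shares 379 of its 1522 exon bases with MMACHC on the other strand, and NQO1 shares 575 of 3254 with ENSG00000261602, which had 0 counts. Strand use in counting is likewise not given.

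The genes lie on different chromosomes except PGD and PRDX1. In GRCh38, TXN is at chr9:110243811-110256640 on the minus strand, TXNRD1 at chr12:104215779-104350305 on the plus strand, PRDX1 at chr1:45511036-45523047 on the minus strand and SRXN1 at chr20:646615-653370 on the minus strand. NQO1 is at chr16:69706996-69726951 on the minus strand. Of the NADPH genes, PGD is at chr1:10398592-10420144 and TALDO1 at chr11:747329-765024, both on the plus strand, and TKT is at chr3:53224707-53256052 and ME1 at chr6:83210389-83431071, both on the minus strand.

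Promoter windows from RefSeq (GRCh38.p14, 250 bases before to 50 after a start) were found for 8 of the 9 genes, with 2 windows for TXNRD1 and none for PRDX1. They were searched on both strands for the core of the antioxidant response element, TGACNNNGC, and for that of the xenobiotic response element, TNGCGTG. No window of the 9 genes held both. The first was present in 13.3% of all 35116 windows and in those of 3 genes, TXNRD1, PGD and ME1. The second was present in 5.51% of all windows and in that of NQO1, where the match lies just after the start. The matches that lie wholly before the RefSeq start are shown with 10 bases on each side, read along the strand of the gene. Of these genes, TXNRD1 rose at 30 µg/cm2, ME1 passed the adjusted p-value alone and PGD passed neither threshold, as described with the results. NQO1 and SRXN1, which rose at that dose too, held no match to the antioxidant response element in their windows. Bases farther upstream were not searched, and a link between matches and responses was not tested. Capitals mark the match.
TXNRD1, upstream start, chr12:104215670-104215698: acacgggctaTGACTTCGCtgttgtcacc
TXNRD1, downstream start, chr12:104286920-104286948: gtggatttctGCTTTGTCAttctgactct
ME1, chr6:83431170-83431198: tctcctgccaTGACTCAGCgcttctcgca
PGD, chr1:10398853-10398881: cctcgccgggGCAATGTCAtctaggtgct
The second TXNRD1 match and the PGD match are on the opposite strand, and both of these stretches lie inside the gene spans of the count table given above, since transcripts of TXNRD1 and PGD in the GENCODE annotation begin upstream of them. SRXN1, TXN, TALDO1 and TKT held neither motif in their windows, which says only that these letters are absent there. TXNRD1 had a further match across its upstream start and ME1 a further match after its start.

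**Figure D1:**
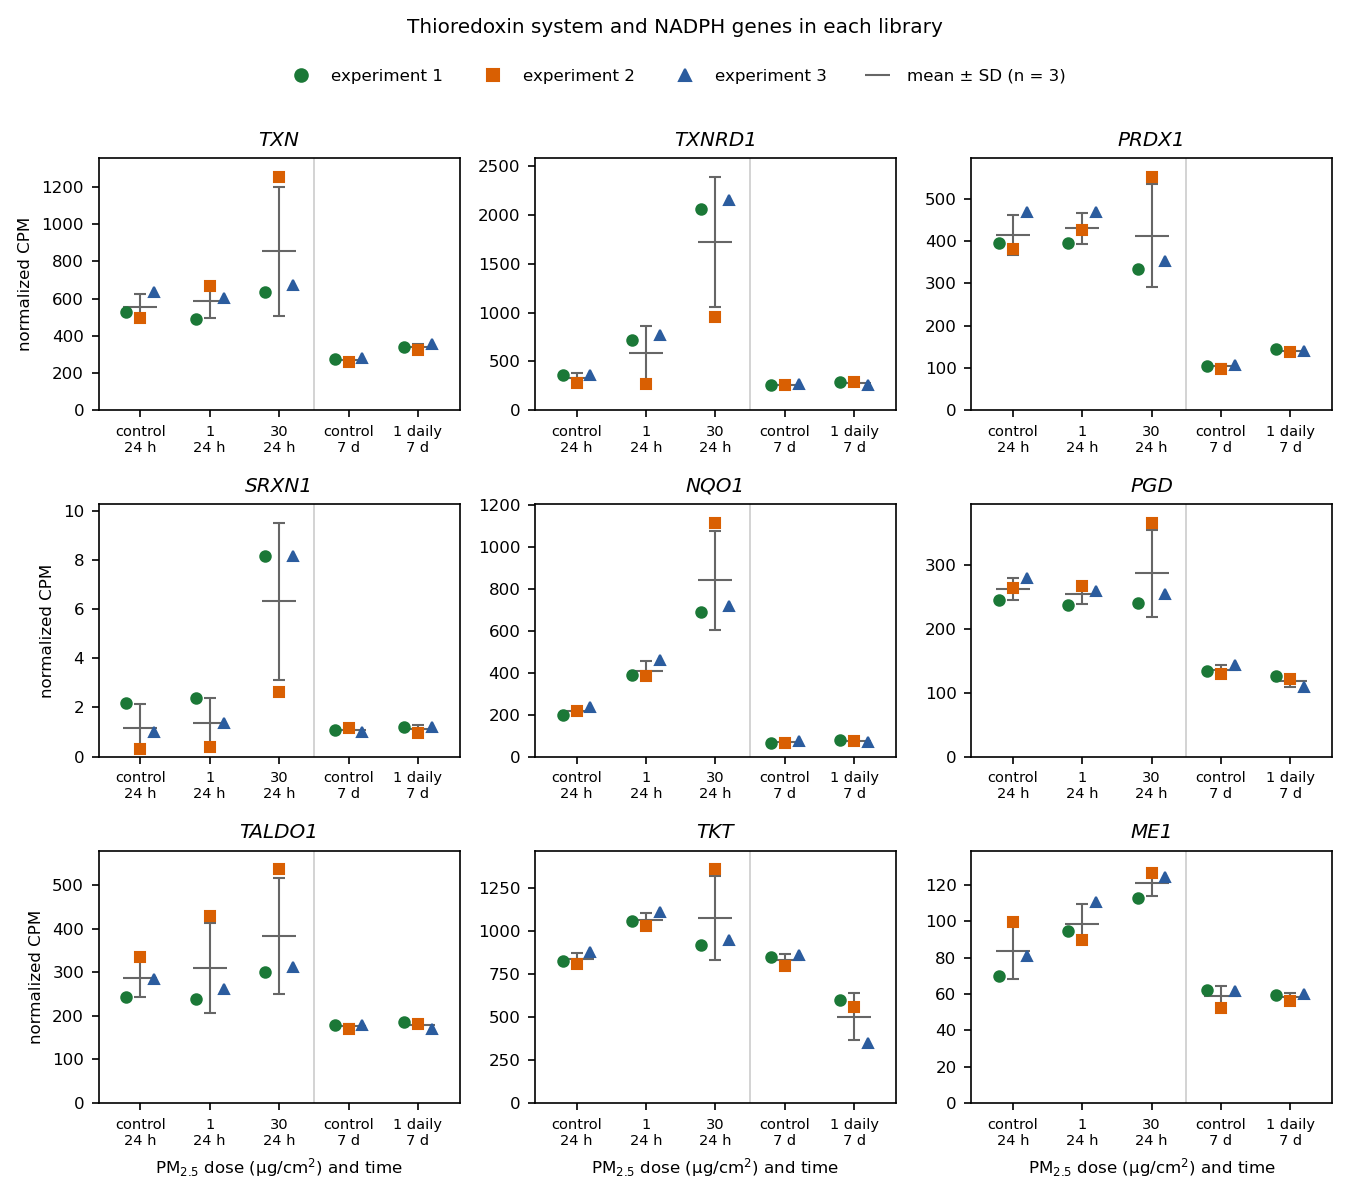
Normalized CPM (y axis, linear from 0) of each of the 9 genes in the 15 libraries, by condition (x axis). Points are libraries, marked by experiment, and grey bars are the mean ± SD of 3 libraries. TXNRD1, SRXN1 and NQO1 are highest in the 30 µg/cm2 libraries, while TXN, PRDX1, NQO1, PGD, TALDO1 and ME1 lie lower in all 7-d libraries than in all 24-h libraries.

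Cells treated with 30 µg/cm2 for 24 h were first compared with vehicle, which addresses the response to a single high dose. Here and throughout, a gene was called where edgeR's quasi-likelihood test gave a p-value under 0.05 after Benjamini-Hochberg adjustment over all tested genes and its log2 fold-change was 0.6 or more in size. TXNRD1, SRXN1 and NQO1 rose, each by a factor between 3.85 and 5.20, and the other 6 genes were not called. ME1 passed the adjusted p-value but not the threshold on fold-change. Among all tested genes 3.82% were called higher and 4.24% lower. In 6 of the 9 genes every treated library stood above every control library, which held for 11.7% of all genes. The median log2 fold-change of the 9 genes was 0.54, against 0.03 for all genes. In bulk RNA a change in the share of cells that express a gene and a change in RNA per cell cannot be told apart.

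TXNRD1, the cytosolic thioredoxin reductase, measured 358, 279 and 361 CPM in Control_24h and 2063, 956 and 2150 CPM in PM_24h_30dose for experiments 1 to 3. The lowest treated library, that of experiment 2, was still far above the highest control. TXNRD1 rose by a log2 fold-change of 2.37 (5.18-fold, adjusted p = 0.000701, SE 0.35). Without the libraries of experiment 2 the log2 fold-change was 2.54.

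SRXN1, which repairs over-oxidized peroxiredoxin, measured 2.20, 0.330 and 0.992 CPM in Control_24h and 8.15, 2.64 and 8.14 CPM in PM_24h_30dose. The groups did not overlap, although the treated library of experiment 2 was close to the highest control, 2.64 against 2.20 CPM. Its log2 fold-change was 2.38 (adjusted p = 0.0233, SE 0.61). The call was lost without the control of experiment 2, the control of experiment 3, the treated library of experiment 1 or the treated library of experiment 3, at log2 fold-changes of 1.97, 2.26, 2.14 and 2.16 and adjusted p-values of 0.0621, 0.0867, 0.0896 and 0.0899. It was also lost when the fit held the compared libraries alone, at 2.39 (adjusted p = 0.128), and it held without the 3 libraries of experiment 2, at 2.32. Within experiments, SRXN1 was 3.71, 7.996 and 8.21 times its control.

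NQO1, a quinone reductase that uses NADH or NADPH, measured 199.7, 218 and 236 CPM in Control_24h and 687, 1112 and 717 CPM in PM_24h_30dose. Here experiment 2 gave the highest treated value. NQO1 rose by a log2 fold-change of 1.95 (3.85-fold, adjusted p = 2.08e-05, SE 0.17), and by 1.68 without experiment 2.

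TXN, thioredoxin itself, measured 527, 495 and 636 CPM in Control_24h and 637, 1255 and 672 CPM in PM_24h_30dose. All treated libraries stood above all controls, though that of experiment 1 barely exceeded the highest control, 637 against 636 CPM. The log2 fold-change was 0.63 (adjusted p = 0.0878, SE 0.22), and 0.16 without experiment 2. When experiments were fitted as a replicate block, TXN gave 0.57 (adjusted p = 0.0303), which is below the threshold on fold-change.

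PRDX1, a cytosolic peroxiredoxin, measured 395, 380 and 467 CPM in Control_24h and 335, 552 and 352 CPM in PM_24h_30dose. The treated libraries of experiments 1 and 3 lay below all controls and that of experiment 2 above them. The log2 fold-change was -0.01, with a 95% interval from -0.36 to 0.35. Without experiment 2 it was -0.34 (adjusted p = 0.0113), which is under the threshold on fold-change.

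Of the NADPH genes, ME1, the cytosolic malic enzyme, measured 69.6, 99.6 and 80.8 CPM in Control_24h and 113, 126 and 124 CPM in PM_24h_30dose. The groups did not overlap. Its log2 fold-change was 0.54 (1.45-fold, adjusted p = 0.0222, SE 0.14), and 0.64 (adjusted p = 0.000205) without experiment 2, where it was among 3430 genes that passed both thresholds. It also passed both when the control of experiment 2 was left out, at 0.68 (adjusted p = 0.00729).

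The 3 pentose phosphate genes were not called. PGD, which encodes the second NADPH-producing dehydrogenase of that pathway, measured 245, 264 and 280.3 CPM in Control_24h and 241, 366 and 254 CPM in PM_24h_30dose, with a log2 fold-change of 0.13 (95% interval -0.19 to 0.44). TALDO1, transaldolase of the non-oxidative branch, measured 244, 335 and 285 CPM in Control_24h and 300.3, 536 and 313 CPM in PM_24h_30dose, with a log2 fold-change of 0.41 (95% interval -0.10 to 0.92). In both genes the groups overlapped and the treated library of experiment 2 was the highest. TKT, transketolase of the same branch, measured 825, 807 and 877 CPM in Control_24h and 916, 1356 and 946 CPM in PM_24h_30dose, with no overlap and a log2 fold-change of 0.36 (95% interval -0.05 to 0.77). Without experiment 2 the log2 fold-changes of PGD, TALDO1 and TKT were -0.10, 0.20 and 0.12.

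**Figure D2:**
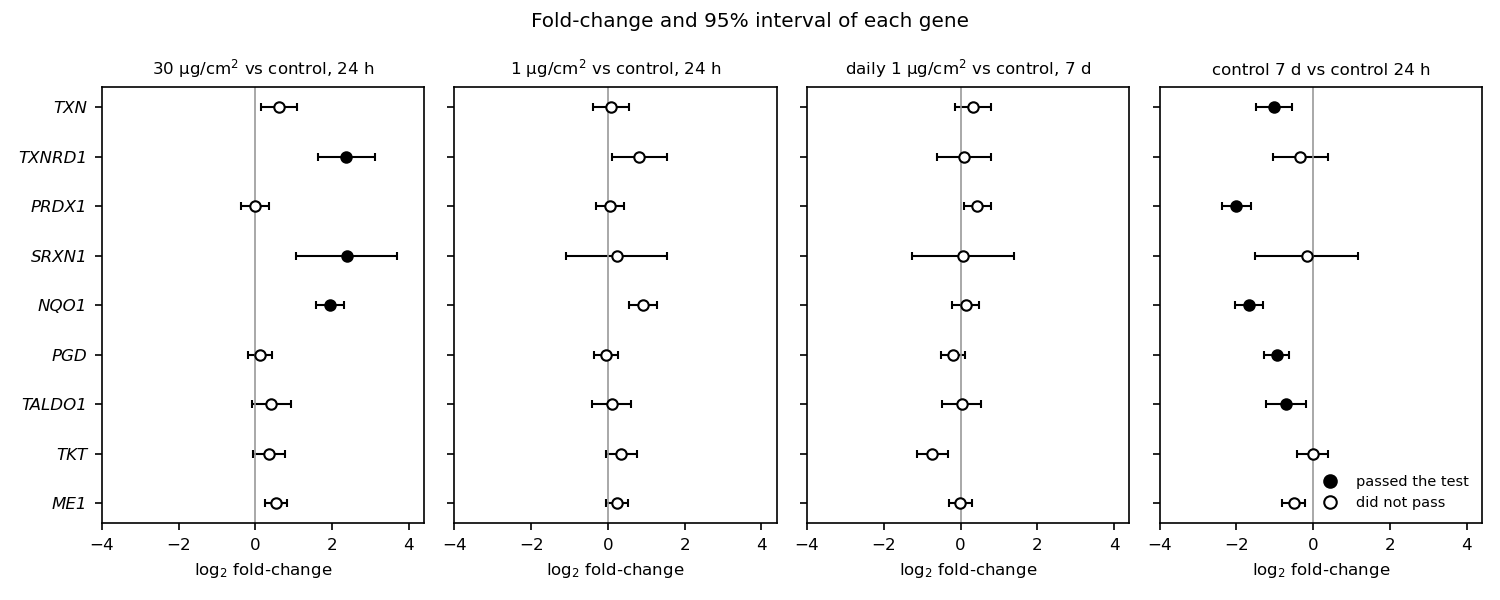
Log2 fold-change (x axis) of the 9 genes (rows) with 95% intervals from edgeR's quasi-likelihood fit, in 4 comparisons. Filled points passed both thresholds. TXNRD1, SRXN1 and NQO1 are filled at 30 µg/cm2, none are filled for either comparison at 1 µg/cm2, and TXN, PRDX1, NQO1, PGD and TALDO1 are filled on the low side between the controls of the 2 protocols.

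The low dose at 24 h was compared with the same controls, so the results at both doses share those libraries. None of the 9 genes was called by edgeR's quasi-likelihood test at 1 µg/cm2, where 0.0625% of all genes were called in either direction. At an unadjusted p under 0.05 there were 2 of the 9, NQO1 and TXNRD1, and 3.03% of all genes, and DESeq2 called 1, NQO1, among 39 genes. In NQO1 and TKT every treated library stood above every control, which held for 2.31% of all genes. The median log2 fold-change of the 9 genes was 0.23 and that of all genes 0.01.

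NQO1 measured 388, 382 and 460 CPM in PM_24h_1dose, and each library lay above all 3 controls and below all 3 libraries of 30 µg/cm2. Within experiments it was 1.94, 1.76 and 1.95 times its control. The log2 fold-change was 0.91 (adjusted p = 0.0964, SE 0.17). The replicate block gave 0.92 (adjusted p = 0.0132) and NQO1 was called, where the block called 0.42% of all genes. Without experiment 2 it was 0.97 (adjusted p = 3.6e-05), in a fit that called 378 genes.

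TXNRD1 measured 721, 274 and 767 CPM in PM_24h_1dose. It was 2.02 and 2.12 times its control in experiments 1 and 3 and 0.982 times its control in experiment 2, so the groups overlapped. The log2 fold-change was 0.82 (adjusted p = 1, SE 0.33). Without experiment 2 it was 1.06 (adjusted p = 7.82e-07, in the fit that called 378 genes), and with the replicate block 0.68 (adjusted p = 0.175).

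TKT measured 1054, 1028 and 1106 CPM in PM_24h_1dose, 1.28, 1.27 and 1.26 times its control in the 3 experiments. Its log2 fold-change was 0.35 (95% interval -0.06 to 0.75). ME1 measured 94.5, 89.8 and 111 CPM, above its control in experiments 1 and 3 and below it in experiment 2, with a log2 fold-change of 0.24 (95% interval -0.05 to 0.53). Without experiment 2 the log2 fold-change of ME1 was 0.46 (adjusted p = 0.0204), under the threshold on fold-change, and that of TKT was 0.35 (adjusted p = 0.253). Like TXNRD1 and NQO1, ME1 thus showed its smallest ratio in experiment 2. SRXN1 measured 2.38, 0.397 and 1.37 CPM, with a log2 fold-change of 0.23 and a 95% interval from -1.10 to 1.55. The SE was 0.62, against 0.28 around 0.24 with the replicate block and 0.32 around 0.22 without experiment 2.

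TXN measured 492, 668 and 603 CPM, PRDX1 395, 426 and 469 CPM, PGD 237, 268 and 260.2 CPM and TALDO1 238, 430 and 262 CPM in PM_24h_1dose. All 4 overlapped their controls, and their log2 fold-changes ran from -0.05 for PGD to 0.11 for TALDO1. The 95% intervals reached from -0.38 to 0.56 for TXN and from -0.30 to 0.41 for PRDX1. Without experiment 2 the log2 fold-changes were -0.08 for TXN, 0.01 for PRDX1, and -0.07 for both PGD and TALDO1.

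**Figure D3:**
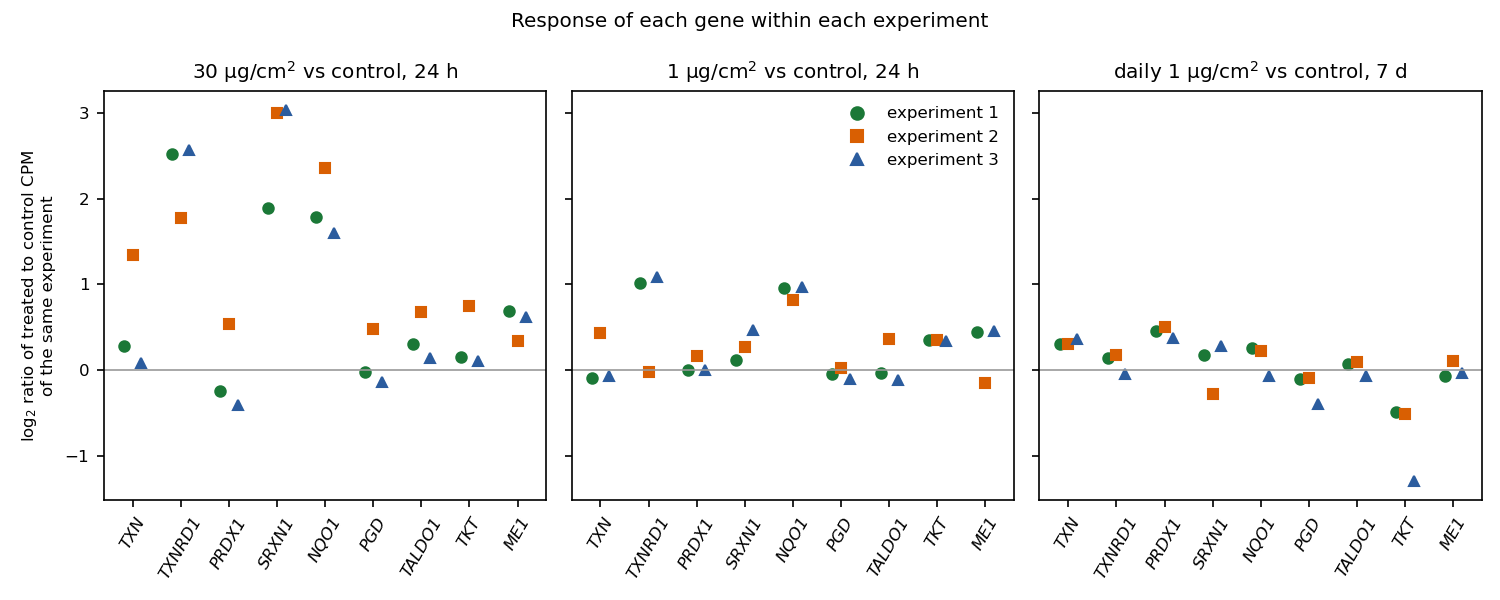
Log2 ratio of treated to control CPM of the same experiment (y axis) for the 9 genes (x axis) in the 3 treatments. Points are experiments. At 30 µg/cm2 experiment 2 is lowest of 3 in TXNRD1 and ME1 and highest in TXN, PRDX1, NQO1, PGD, TALDO1 and TKT, and at 7 d TKT is lowest in experiment 3.

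A direct comparison of 30 with 1 µg/cm2 at 24 h called the same 3 genes as 30 µg/cm2 against control, with which it shares the treated libraries. TXNRD1 was higher at 30 µg/cm2 by a log2 fold-change of 1.55 (adjusted p = 0.0103, SE 0.34), SRXN1 by 2.15 (adjusted p = 0.0371, SE 0.60) and NQO1 by 1.03 (adjusted p = 0.00179, SE 0.17). Over all genes 3.62% were called higher and 4.22% lower. In these 3 genes and in ME1 the groups did not overlap, as in 11.5% of all genes. The median log2 fold-change of the 9 genes was 0.31 and that of all genes 0.01. TKT differed by a log2 fold-change of 0.01, with a 95% interval from -0.39 to 0.42. With the compared libraries alone there were no calls, at adjusted p-values of 0.1895, 0.1973 and 0.1093 for TXNRD1, SRXN1 and NQO1. Without the 3 libraries of experiment 2 the 3 genes were called among 3113 genes, at 1.48, 2.09 and 0.70 (adjusted p = 1.79e-09, 3.43e-05 and 6.36e-05). Of the other 6 genes in that fit, PRDX1 moved from -0.06 to -0.36 (adjusted p = 0.0102) and TALDO1 from 0.31 to 0.27 (adjusted p = 0.0268), both under the threshold on fold-change, and TKT from 0.01 to -0.24. When the 30 µg/cm2 library of experiment 1 or of experiment 3 was left out, NQO1 alone was called, and SRXN1 was also lost without the 1 µg/cm2 library of experiment 2 or 3. With the replicate block the same 3 genes were called higher, among 6.97% of all genes, and in the comparison of 30 µg/cm2 with control they were called among 7.36%.

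Experiments differed in which genes were high. In the 30 µg/cm2 library of experiment 2, TXNRD1 and SRXN1 lay below the other 2 libraries of the condition, and TXN, PRDX1, NQO1, PGD, TALDO1 and TKT above them. ME1 was also highest in that library, narrowly, at 126 CPM against 113 and 124 CPM. After the mean of each condition was taken out, log2 CPM of TXNRD1 and SRXN1 correlated at a Pearson r of 0.82 over the 15 libraries, and TXN and PRDX1 at 0.94. TXNRD1 and TALDO1 correlated at -0.94 on the same scale, and SRXN1 and TALDO1 at -0.92. Before the condition means were removed, the r of TXNRD1 with TALDO1 was 0.48. The points of these correlations share libraries and the 24-h experiment 2, and they are given as a description.

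Daily exposure to 1 µg/cm2 was compared with its own 7-d controls, which addresses repeated low-level exposure. None of the 9 genes was called, while 0.227% of all genes were. At an unadjusted p under 0.05 there were 2 of the 9, TKT and PRDX1, and 11.9% of all genes, and DESeq2 called 1, TKT, among 250 genes. In TXN and PRDX1 every treated library stood above every control and in PGD and TKT every one stood below, which held for 21.3% and 21.6% of all genes. The median log2 fold-change was 0.06 for the 9 genes and 0.01 for all genes.

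TKT measured 845, 796 and 857 CPM in Control_7d and 599.8, 557 and 348 CPM in PM_7d_1dose. The treated library of experiment 3 was the lowest of all 15, and the ratios to control were 0.7099, 0.6996 and 0.406 in the 3 experiments. The log2 fold-change was -0.73 (adjusted p = 0.134, SE 0.19), and -0.53 when that library was left out. With the replicate block TKT was called lower at -0.77 (adjusted p = 0.0147), where the block called 4.39% of all genes in either direction. It was also called with the 7-d libraries alone, at -0.73 (adjusted p = 0.00709), and without the 24-h libraries of experiment 2, at -0.73 (adjusted p = 0.00137). Those fits called 1029 and 1083 genes, against 40 in the quasi-likelihood fit of all libraries without the block.

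PRDX1 measured 105, 98.0 and 107 CPM in Control_7d and 144, 138 and 139 CPM in PM_7d_1dose. The 3 experiments were close to one another, at 1.37, 1.41 and 1.30 times control. The log2 fold-change was 0.44 (adjusted p = 0.309, SE 0.17), and 0.44 (adjusted p = 0.0679) with the block. It passed the adjusted p but not the threshold on fold-change with the 7-d libraries alone, at 0.45 (adjusted p = 0.000612), and without the 24-h libraries of experiment 2, at 0.44 (adjusted p = 0.00121). TXN measured 276, 260.5 and 279 CPM in Control_7d and 341, 322 and 359 CPM in PM_7d_1dose, 1.24, 1.24 and 1.29 times control. Its log2 fold-change was 0.32 (95% interval -0.14 to 0.79), and in those same fits 0.33 (adjusted p = 0.00278) and 0.33 (adjusted p = 0.0133).

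The genes that rose at 30 µg/cm2 were close to their controls after daily exposure. NQO1 measured 65.4, 64.5 and 73.4 CPM in Control_7d and 78.0, 75.4 and 70.1 CPM in PM_7d_1dose, with a log2 fold-change of 0.14 (95% interval -0.22 to 0.49). TXNRD1 measured 262, 260.3 and 269 CPM and 288, 293 and 259 CPM, with a log2 fold-change of 0.09 (95% interval -0.62 to 0.80). SRXN1 measured 1.06, 1.16 and 1.00 CPM in Control_7d and 1.20, 0.953 and 1.22 CPM in PM_7d_1dose, with an interval from -1.28 to 1.40.

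Of the remaining NADPH genes, PGD measured 135, 129 and 144 CPM in Control_7d and 126, 121 and 109 CPM in PM_7d_1dose, with a log2 fold-change of -0.20 (95% interval -0.51 to 0.12). TALDO1 measured 178, 170.8 and 179 CPM in Control_7d and 187, 182 and 170.3 CPM in PM_7d_1dose. ME1 measured 62.1, 52.0 and 61.8 CPM in Control_7d and 59.2, 56.0 and 60.1 CPM in PM_7d_1dose. Both overlapped their controls, with log2 fold-changes of 0.03 for TALDO1 and -0.004 for ME1.

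The response to daily 1 µg/cm2 was then set against the response to a single dose of 1 µg/cm2 by testing the difference itself. None of the 9 genes was called by edgeR's quasi-likelihood test, which called 0% of all genes, although 1245 of 17599 had an unadjusted p under 0.05 and DESeq2 called 75. At that unadjusted threshold there were 2 of the 9, NQO1 and TKT, and 7.07% of all genes. The response of TKT was lower after daily exposure by a log2 difference of -1.08 (adjusted p = 0.405, SE 0.27). The replicate block gave -1.12 (adjusted p = 0.0475), where 1.03% of all genes were called, and DESeq2 gave -1.08 (adjusted p = 0.0303). For NQO1 the difference was -0.78 (adjusted p = 0.481, SE 0.23), and for TXNRD1 it was -0.73 (adjusted p = 0.818, SE 0.47). Without the 24-h libraries of experiment 2 all 3 were called, at -1.08 for TKT, -0.83 for NQO1 and -0.97 for TXNRD1, with adjusted p-values of 0.00292, 0.000856 and 5.04e-05. That fit called 1766 genes, against 0 in the quasi-likelihood fit of all libraries without the block. The median difference of the 9 genes was -0.16, against -0.01 for all genes.

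The controls themselves differed between the protocols. Of the 9 genes 5 fell from Control_24h to Control_7d, where 11.1% of all genes were called higher and 10.8% lower. PRDX1 fell by 1.999 on the log2 scale (adjusted p = 8.06e-06, SE 0.17), NQO1 by 1.68 (SE 0.17), TXN by 1.02 (adjusted p = 0.00356, SE 0.22), PGD by 0.95 (SE 0.15) and TALDO1 by 0.71 (adjusted p = 0.0383, SE 0.24). The PRDX1 libraries ran from 380 to 467 CPM at 24 h and from 98.0 to 107 CPM at 7 d. In 7 of the 9 genes every 7-d control stood below every 24-h control, as in 24.7% of all genes, and the 2 exceptions were SRXN1 and TKT. TKT differed by a log2 fold-change of -0.01, with a 95% interval from -0.41 to 0.40. ME1 measured -0.51 (adjusted p = 0.0133), under the threshold on fold-change, TXNRD1 -0.34 (95% interval -1.05 to 0.38) and SRXN1 -0.17 (95% interval -1.51 to 1.17). Without the 24-h libraries of experiment 2 the same 5 genes were called, TXNRD1 was at -0.46 (adjusted p = 6.46e-05) and ME1 at -0.38 (adjusted p = 0.00408), both under the threshold on fold-change, and SRXN1 was at -0.60 (adjusted p = 0.109). The median of the 9 genes was -0.71, against 0.02 for all genes. The call of TALDO1 was lost without any 1 of 5 control libraries, namely those of experiments 2 and 3 at 24 h and of experiments 1, 2 and 3 at 7 d, at adjusted p-values of 0.102, 0.0754, 0.0937, 0.109 and 0.0948. ME1 was called, at -0.66 (adjusted p = 0.00589), without the 24-h control of experiment 1. The summed mesenchymal markers ranged from 494.7 to 787.9 CPM in Control_24h and from 296.5 to 354.1 CPM in Control_7d. Most of that sum was VIM, at a mean of 532 and 234 CPM. PDGFRB and CDH2 were lower at 7 d too, while COL1A1 measured 42.0 and 41.1 CPM and COL1A2 17.3 and 20.9 CPM. Epithelial markers moved both ways, such as CDH1 from 80.9 to 207.8 CPM and KRT7 from 1621 to 781 CPM. The part of these markers in the differences was not tested. Protocol, time in culture, number of washes and plating density, which the methods give as lower for the repeated protocol, cannot be told apart in this comparison.

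Over the 5 conditions, NQO1 gave the clearest order. It ran from PM_24h_30dose through PM_24h_1dose and Control_24h to the 7-d conditions without overlap, and the 2 conditions at 7 d overlapped. TXNRD1 and SRXN1 separated PM_24h_30dose from the rest, and the neighbours among the other 4 conditions overlapped. TXN and PRDX1 separated the 24-h from the 7-d conditions and PM_7d_1dose from Control_7d, while neighbours within the 24 h overlapped. PGD separated the 24-h conditions from Control_7d and Control_7d from PM_7d_1dose, and TALDO1 the 24-h from the 7-d conditions. In TKT the 2 doses at 24 h overlapped each other but not Control_24h, Control_24h overlapped Control_7d, and PM_7d_1dose was lowest without overlap. In ME1, PM_24h_30dose was the highest and the 7-d conditions the lowest, both without overlap. Over all genes, PM_7d_1dose lay wholly above Control_7d in 21.3% and wholly below it in 21.6%. The separation of TXN, PRDX1, PGD and TKT at 7 d was near those shares. Control_7d lay wholly below Control_24h in 24.7% of all genes. PM_24h_30dose lay wholly above Control_24h in 11.7% and above PM_24h_1dose in 11.5%, and PM_24h_1dose above Control_24h in 2.31%.

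Other genes of the thioredoxin, peroxiredoxin, glutaredoxin and methionine sulfoxide reductase families were read, with the quinone reductase NQO2, from a list of 21, all of which were tested. At 30 µg/cm2 none of the 21 was called, by edgeR's quasi-likelihood test, and their median log2 fold-change was -0.09 against 0.03 for all genes, while NQO2, which is related to NQO1, was called higher with the replicate block at 0.61 (adjusted p = 0.000334). At that dose 3.82% of all genes were called higher and 4.24% lower, and 7.36% higher with the block. At 1 µg/cm2 for 24 h none of the 21 was called, where 0.0625% of all genes were, with a median of -0.05 against 0.01. After daily exposure 1 of the 21 rose, TXNIP, which binds thioredoxin and inhibits it, while 0.227% of all genes were called in either direction. The median of the 21 was 0.11 against 0.01. TXNIP measured 25.7, 24.8 and 13.96 CPM in Control_7d and 119, 114 and 355 CPM in PM_7d_1dose, so the treated library of experiment 3, which held the lowest TKT, held the highest TXNIP. Its log2 fold-change was 3.19 (adjusted p = 0.00675, SE 0.39) and it was 4.63, 4.59 and 25.4 times its control in the 3 experiments. The call was lost without the 7-d control of experiment 1, at 3.34 (adjusted p = 0.0582), or of experiment 3, at 2.95 (adjusted p = 0.0635), an alternative chosen after seeing the data. In Control_24h it measured 117.1 to 123.5 CPM, near the lower values of PM_7d_1dose.

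Between the controls, 10.8% of all genes were called lower at 7 d and 11.1% higher. Of the 21, 8 fell from 24 h to 7 d and none rose, with a median of -0.46 against 0.02 for all genes. They were TXNIP (log2 fold-change -2.496), GLRX (glutaredoxin, -1.38), PRDX2 (-1.17), MSRB1 (-1.08), TXNDC17 (-1.05), PRDX4 (-0.78), PRDX6 (-0.75) and TXNRD2 (the mitochondrial thioredoxin reductase, -0.69). The direction was thus the same as in PRDX1 and TXN. When single control libraries were left out, calls were lost for PRDX6 without each but that of 24-h experiment 1, for TXNRD2 likewise, for MSRB1 without that of 24-h experiment 2 or any at 7 d, and for TXNDC17 without that of 7-d experiment 2, at log2 fold-changes from -0.58 to -1.10. PRDX6 was also under the threshold on fold-change without all of 24-h experiment 2, at -0.57. Between 30 and 1 µg/cm2 none of the 21 was called, with a median of -0.13 against 0.01, while 3.62% of all genes were called higher and 4.22% lower. With the replicate block MSRB1, a methionine sulfoxide reductase, was called lower there at -0.64 (adjusted p = 0.00188). In the difference between the responses to daily and single 1 µg/cm2 the block called TXNIP at 2.72 (adjusted p = 0.0441), and 1.03% of all genes.

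Of 19 further genes of pathways linked to NADPH supply, not all of which produce NADPH themselves, 18 were tested and TKTL1 was not. Of all genes, 3.82% were called higher at 30 µg/cm2 and 4.24% lower. Among the 18, 4 rose at this dose and none fell, with a median log2 fold-change of 0.21 against 0.03 for all genes. Of these, 3 act in mitochondrial folate metabolism: ALDH1L2 (log2 fold-change 2.08), MTHFD1L (1.26) and MTHFD2 (1.06). The call of MTHFD2 was lost without the control of experiment 1 or 3 or the treated library of experiment 1 or 3, at 0.85, 0.90, 1.06 and 1.04 (adjusted p = 0.121, 0.126, 0.0871 and 0.0884), and with the compared libraries alone, at 1.05 (adjusted p = 0.118). None of the 18 was called at 1 µg/cm2 for 24 h, with a median of -0.06 against 0.01, or after daily exposure, with a median of -0.10 against 0.01. In these comparisons 0.0625% and 0.227% of all genes were called. Between 30 and 1 µg/cm2, MTHFD1L and ALDH1L2 were called higher, as were 3.62% of all genes, with a median of 0.14 against 0.01. The replicate block added MTHFD2 at 0.93 (adjusted p = 0.00155) and ME2, a mitochondrial malic enzyme, at 0.61 (adjusted p = 0.000192) to these calls, and called 6.97% of all genes higher. After daily exposure the block called ALDH1L1 lower at -0.63 (adjusted p = 0.00289), and 4.39% of all genes in either direction. From Control_24h to Control_7d, H6PD, MTHFD2 and ALDH1L2 rose by log2 fold-changes of 1.19, 1.35 and 2.37 and 3 of the 18 fell, among them ME3 by 1.34 and MTHFD1 by 0.65, with a median of 0.13 against 0.02. Of all genes, 11.1% were called higher and 10.8% lower there.

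TXNRD1 is a selenoprotein, and 7 genes of selenocysteine synthesis and insertion were therefore read, all tested. Of all genes, 3.82% were called higher at 30 µg/cm2. SEPHS2, the selenophosphate synthetase, rose at this dose by a log2 fold-change of 0.64 (adjusted p = 0.00392, SE 0.12), the only one of 7 called, with a median of 0.31 against 0.03 for all genes. It fell under the threshold on fold-change without the control of experiment 2 (0.5998) or the treated library of experiment 1 or 3 (0.57 and 0.56), and missed the adjusted p with the compared libraries alone (0.0984). Of all genes, 3.62% were called higher at 30 than at 1 µg/cm2. In that comparison SEPHS2 was higher by 0.71 and SECISBP2, which binds the selenocysteine insertion element, by 0.68, with a median of 0.13 against 0.01. With the compared libraries alone neither was called (adjusted p = 0.119 and 0.1204), nor was ALDH1L2 (0.0729), and SECISBP2 was at 0.59 without the 30 µg/cm2 library of experiment 1. None was called at 1 µg/cm2 for 24 h, with a median of 0.09, or after daily exposure, with a median of 0.16. SECISBP2 rose from Control_24h to Control_7d by 0.79, where 11.1% of all genes were called higher, with a list median of 0.09 against 0.02.

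**Figure D4:**
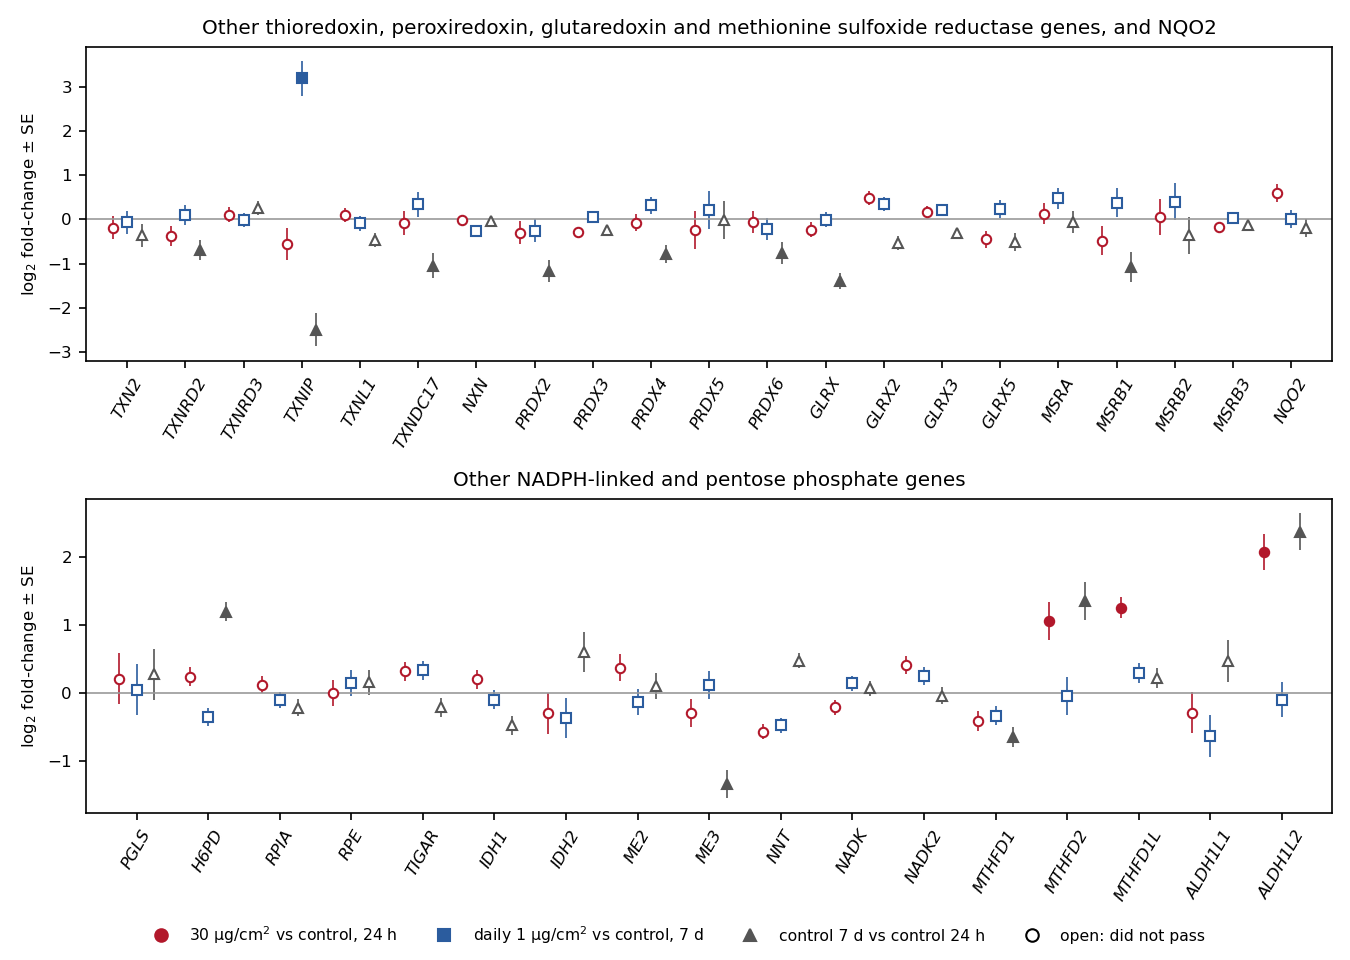
Log2 fold-change ± SE (y axis) from edgeR's quasi-likelihood fit for the 21 redox genes and 17 of the NADPH genes outside the 9 (x axis), in 3 comparisons. Filled points passed both thresholds. TXNIP stands at 3.19 after daily exposure and -2.496 between the controls, and MTHFD2, MTHFD1L and ALDH1L2 are the filled points at 30 µg/cm2.

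Among the 10 tested genes whose log2 CPM over the 15 libraries was most like the mean of the 9, each scaled to its own mean and SD, were HPCAL1 and MT2A (Pearson r 0.98 each), SLC16A13, MT1E, PELO, SLC35F6, UCHL1, DPP3 and TIMP1 (r down to 0.965). MT2A and MT1E encode metallothioneins. Of the 9 themselves, NQO1 lay closest to that mean at 0.993, followed by ME1 at 0.956, and SRXN1 farthest at 0.521. These libraries fall into conditions and share experiments, so the values describe likeness only.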

How the data were processed

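RNA was sequenced as single-end reads of 50 bases, aligned with STAR and counted per gene with featureCounts, and the authors deposited raw counts per gene without normalization. The submitters' processing notes name hg19 and the methods GRCh38. The coordinates in the table match GRCh38, which was used. The test was that of edgeR 4.0.16 (R 4.3.3). Low genes were removed by condition (filterByExpr, 17599 kept of 58219), and the rest were scaled by TMM and fitted with 1 mean per condition over all 15 libraries (quasi-likelihood test, legacy mode, Benjamini-Hochberg adjustment). An SE is the size of the log2 fold-change over the root of F. CPM use the TMM-scaled library sizes, and a floor of 3 counts per library allows for counting error alone. P-values measure the spread between experiments in 1 cell line. That spread was estimated for each gene over all 15 libraries, so p-values at 7 d also carry the spread of the 24-h libraries. After daily exposure the SE of PRDX1 was 0.17 in this fit and 0.057 with the 7-d libraries alone. For TXN these were 0.22 and 0.058, and for TKT 0.19 and 0.16.

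The series record gives the replicate number as the experimental batch, so the numbers pair the samples within a protocol. Deviations from condition means correlated at 0.12 to 0.72 between libraries of the same number (12 pairs) and at -0.68 to 0.45 between different numbers (24 pairs). Same-number values were 0.18, 0.12 and 0.16 at 7 d and ran from 0.20 to 0.72 at 24 h, so the pairing was weaker at 7 d. Deviations cancel within a condition, so the ranges for same and different numbers are not independent. A fit with the number as a replicate block, separate for each protocol, was an alternative, beside other normalizations, filters, DESeq2 1.42.0, the likelihood ratio test and leaving out libraries. The procedure was tested on simulated data without an experiment effect, for 30 µg/cm2 against control. It called 57% of genes changed by a log2 fold-change of 1 and 98% of those changed by 2. Many changes of 1 or less can thus go uncalled. The 9 genes, the gene lists and the rule for named genes (the 9, genes of 3 pathway lists called in any comparison, genes that overlap the 9 or are named as their pseudogenes, and the 10 most alike) were chosen with earlier results of these data known. A gene of the NADPH list enters the counts and medians but is not reported here by name.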

Additional observations from a re-analysis of the deposited data

Results flagged for a closer look

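TKT was the only gene of the 9 for which the response to daily 1 µg/cm2 at 7 d and the response to a single dose of 1 µg/cm2 at 24 h differed by a test of the difference itself in a fit that kept all libraries. With the replicate block the log2 difference was -1.12 (adjusted p = 0.0475 by edgeR's quasi-likelihood test). TKT was 1.28, 1.27 and 1.26 times its control after the single dose and 0.7099, 0.6996 and 0.406 times its control after daily exposure, so that all 3 experiments of 1 protocol moved one way and all 3 of the other the opposite way. Without the block the adjusted p was 0.405. The treated 7-d library of experiment 3 held the lowest TKT level and the highest TXNIP level of all 15 libraries, and its part in the difference was not tested with the block. By the chi-square between libraries of a condition it also stood apart from the others of its condition.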

How the results depend on the processing

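Under every alternative run, TXNRD1 and NQO1 were called at 30 µg/cm2 against control. None of the 9 genes was called at 1 µg/cm2 against control at 24 h, but 1 was without a filter on low counts, with the replicate block, with DESeq2 and with the likelihood ratio test (NQO1 each time), and 2 without the libraries of 24-h experiment 2 (NQO1, TXNRD1). None was called after daily exposure, but 1 (TKT) was with the compared libraries alone, the replicate block, DESeq2, the likelihood ratio test, and without 24-h experiment 2. For the difference between these responses, 1 (TKT) was called with the block and with DESeq2, and 3 without 24-h experiment 2. For 30 against 1 µg/cm2, 3 were called, 0 with the compared libraries alone, and 1 to 3 when single libraries were left out. The replicate block changed no other call of the 9 genes, and it was not possible for the controls of both protocols. Over all genes, calls at 30 µg/cm2 against control were 1420, against 360 with the compared libraries alone, 2681 with the block, 3430 without 24-h experiment 2 and 794 to 2706 when 1 treated library was left out. For 30 against 1 µg/cm2 they were 1379, against 149, 2737, 3113 and 711 to 2715 (1 library at 30 µg/cm2 left out). At 1 µg/cm2 they were 11, against 38 without a filter, 2 with the compared libraries alone, 74 with the block, 39 with DESeq2, 34 with the likelihood ratio test, 378 without 24-h experiment 2 and 4 to 45 when single libraries were left out. After daily exposure they were 40, against 92, 1029, 773, 250, 194 and 1083 under the same 6 settings and 0 to 11 without single 7-d libraries. For the difference between responses they were 0, against 20, 1, 181, 75, 13 and 1766, and 63 without the 24-h control of experiment 2. The causes of these changes were not tested.

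Signs changed only in log2 fold-changes that were not called. For ME1 after daily exposure (-0.004) values were 0.025 with upper quartile scaling, 0.0025 with the filter at 1 CPM, 0.0029 with the compared libraries alone and 6.3e-05 with the block. For TKT at 30 against 1 µg/cm2 (0.01) they were -0.00094 with RLE scaling and with DESeq2, -0.038 with upper quartile scaling, -0.013 with the filter at 1 CPM, -0.018 with the compared libraries alone, -0.00013 with the block and -0.24 without 24-h experiment 2. TKT between controls was 0.0077 without a filter. Without 24-h experiment 2, PGD was -0.10 at 30 µg/cm2 against control and -0.031 against 1 µg/cm2, TXN -0.076 and TALDO1 -0.072 at 1 µg/cm2, and the TALDO1 difference between responses 0.10.

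Leaving out single libraries gave, at 30 µg/cm2 against control, -0.094 to 0.22 for PGD and -0.28 to 0.11 for PRDX1. At 1 µg/cm2 it gave -0.092 to 0.021 for PGD, -0.013 to 0.16 for PRDX1, -0.38 to 1.05 for SRXN1, -0.20 to 0.28 for TALDO1 and -0.0098 to 0.22 for TXN. At 30 against 1 µg/cm2 it gave -0.055 to 0.26 for PGD, -0.34 to 0.047 for PRDX1, -0.028 to 0.60 for TALDO1 and -0.20 to 0.10 for TKT. After daily exposure it gave -0.085 to 0.037 for ME1, -0.0026 to 0.17 for SRXN1 and -0.0012 to 0.063 for TALDO1. Between controls it gave -0.60 to 0.63 for SRXN1 and -0.052 to 0.027 for TKT, and for the difference between responses -0.98 to 0.45 for SRXN1 and -0.24 to 0.24 for TALDO1. Over all alternatives, 825 fold-changes kept direction and call, 46 changed sign, 19 gained and 19 lost a call. SRXN1 had the fewest counts of the 9, 7 to 248 per library.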

Other observations

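Sequence-related genes took few reads: the pseudogene PGDP1 held 0 to 7 counts per library and PRDX1P1 held 1 to 6, against at least 3488 for PGD and 2774 for PRDX1. MMACHC, which shares exon bases with PRDX1 on the other strand, held 357 to 839 counts.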
